A study of Mus musculus with 6 samples.

Results

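The genes described here are 48 genes of the actin cytoskeleton and its regulation by the small GTPase Cdc42 and its relatives: WASP and its partners, the WAVE complex, the Arp2/3 complex, formins and other elongation factors, actin with its monomer-binding proteins, cofilin with its kinases and phosphatases, capping and crosslinking proteins, and effectors that bind Cdc42. They were chosen by gene symbol from 14608 genes, and 48 of 48 were present in both deposited tables. RNA-seq was carried out on regulatory T (Treg) cells, which are CD4 T cells that depend on the transcription factor Foxp3 and hold immune responses in check. The cells were taken from mouse spleen by magnetic enrichment of CD4 cells and flow sorting of cells positive for CD4 and the fluorescent protein YFP, in all groups alike. There were 6 libraries, 2 from WT mice, 2 from mice heterozygous for a Cdc42 knockout (Cdc42+/-) and 2 from homozygous knockout mice (Cdc42-/-), with 2 mice stated for each genotype. The promoter that drives YFP or a recombinase, the deleted part of Cdc42, and the age and sex of the mice are not given in the sources used here.

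Cdc42 bound to GTP opens the autoinhibited scaffold WASP, which then hands actin monomers to the Arp2/3 complex, and this complex starts a new filament as a branch on an existing one. The WAVE complex does the same job on signals from the related GTPase Rac, while formins build unbranched filaments. Profilin and thymosins hold monomers in reserve, capping proteins stop growing ends, cofilin cuts old filaments and filamin ties filaments into networks. In T cells these proteins shape the contact with antigen-presenting cells and drive migration, and loss of WASP causes the immune deficiency Wiskott-Aldrich syndrome.

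Promoter sequences are shown for the 3 genes of the set that passed the test in Cdc42-/- cells (Flna, Iqgap1 and Cyfip2) and for Actg1, the gene next in adjusted p, because these are the genes the results turn on. They come from RefSeq on GRCm38.p6, whose table matched 42 of the 48 genes, with 57 promoters. Each window covers the 250 bases before a RefSeq transcript start, and bases that GENCODE M21 places in an exon of the gene were left out. All 4 lie on the minus strand and are written 5′ to 3′ on that strand. The stretch for Flna, chrX:74246556-74246784, the stretch for Iqgap1, chr7:80803417-80803581, and the stretch for Cyfip2, chr11:46312359-46312490, lie inside the RefSeq span of their gene, before a start downstream of the outermost one. That for Actg1, chr11:120348543-120348745, lies before the whole gene. Capitals mark the CArG box, the motif bound by serum response factor (SRF), and GGGCGG on either strand, the GC box bound by Sp1.
Flna: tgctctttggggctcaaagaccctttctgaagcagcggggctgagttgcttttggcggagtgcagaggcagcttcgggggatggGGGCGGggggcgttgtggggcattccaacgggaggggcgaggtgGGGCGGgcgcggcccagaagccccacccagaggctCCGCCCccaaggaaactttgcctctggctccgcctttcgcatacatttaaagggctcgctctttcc
Iqgap1: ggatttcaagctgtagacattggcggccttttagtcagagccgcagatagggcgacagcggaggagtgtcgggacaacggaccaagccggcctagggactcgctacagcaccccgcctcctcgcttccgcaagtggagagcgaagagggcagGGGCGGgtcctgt
Cyfip2: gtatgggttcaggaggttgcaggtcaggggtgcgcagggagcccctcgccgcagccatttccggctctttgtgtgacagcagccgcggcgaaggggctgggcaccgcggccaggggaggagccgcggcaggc
Actg1: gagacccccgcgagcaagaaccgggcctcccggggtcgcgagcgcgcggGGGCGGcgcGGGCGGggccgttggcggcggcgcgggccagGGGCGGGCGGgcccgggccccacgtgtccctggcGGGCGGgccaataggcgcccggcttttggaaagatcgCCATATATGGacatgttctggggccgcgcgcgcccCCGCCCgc

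The Actg1 stretch held 1 CArG box, at 90 to 81 bases before the start, and 6 matches to GGGCGG, of which one pair overlaps. The Flna stretch held 3 matches to GGGCGG, the Iqgap1 stretch 1 and the Cyfip2 stretch 0, and these 3 stretches held 0 CArG boxes. In the windows of 250 bases, a CArG box was found in 2 of the 57 promoters of the set (Arpc4 and Actg1), in 1.47% of all 32851 mouse promoters in the table and in 1.22% of those of the genes tested here. GGGCGG was found in 38 of 57 (66.7%), against 32.7% of all promoters and 56.5% of those of tested genes. TATAAA, searched on both strands, was found in 1 of 57 (Hcls1), against 12.4% and 6.69%. These matches describe letters in a window and not sites in use.

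Libraries held between 8556576 and 17796100 reads in listed genes. Cdc42 itself was at 166 and 161 RPKM for WT, 164 and 156 for Cdc42+/-, and 122 and 173 for Cdc42-/-. The change against WT was -0.17 in Cdc42-/- (limma adjusted p 0.55) and did not pass. Without Cdc42-/- replicate 2 it passed as lower (-0.42, limma adjusted p 0.0167), and without replicate 1 its sign turned (0.08, limma adjusted p 0.474). Because the deleted part is not given and the reads were summed over a gene length of 3004 nt, this level does not check the genotype, which rests on the labels. The 8 Treg markers were present in every library, with a summed level of 1547 to 1768 RPKM in WT and Cdc42+/- and of 1280 and 1024 RPKM in Cdc42-/-, and Foxp3 was at 58.4 RPKM in Cdc42-/- replicate 2 against 103 to 131 RPKM in the other 5 libraries. Of these 8 markers 0 rose and 3 fell in Cdc42-/- against WT, beside 6.86% and 4.57% of all genes. Izumo1r fell by 1.67, Ikzf2 by 0.90 and Cd3e by 0.78 (limma adjusted p 0.00144, 0.0311 and 0.0126). Ctla4 had 0.49 (limma adjusted p 0.0524), and the part of these markers in the values of the set was not tested. Cdc42-/- replicate 2 stood apart: its 15 myeloid markers summed to 1863 RPKM against 149 to 264 RPKM elsewhere, and its Lyz2 was at 600.2 RPKM against at most 9.75 RPKM. In Cdc42-/- replicate 1 the myeloid sum was the lowest, at 149 RPKM, with Ctss at 110 RPKM and Cybb at 0.685 RPKM below all WT and Cdc42+/- libraries, but 5 of the 15 markers, among them Lyz2 (9.75 RPKM) and Csf1r (0.933 RPKM), lay above all of those libraries. Summed levels of 10 cell cycle genes were 165 and 162 RPKM for WT, 294 and 258 for Cdc42+/-, and 747 and 1082 for Cdc42-/-. The Y-linked Ddx3y was at 37.7 and 42.4 RPKM in WT, at most 0.126 RPKM in Cdc42+/- and Cdc42-/- replicate 1, and 27.5 RPKM in Cdc42-/- replicate 2. Xist, expressed from the inactive X chromosome of female cells, had 0.199 and 1.13 RPKM for WT, 99.3 and 93.3 for Cdc42+/-, and 87.4 and 21.2 for Cdc42-/-, so Cdc42-/- replicate 2 held both Xist and Y-linked reads. Cdc42+/- against WT and sex cannot be told apart, and Cdc42-/- against WT is confounded with it in part, through replicate 1 and through the Xist reads of replicate 2. Markers of B cells (10.1 to 19.3 RPKM summed over 6 genes) and of CD8 T and NK cells (8.63 to 12.1 RPKM over 4) were low in every library, and 3 erythroid markers summed to 0.355 to 1.14 RPKM in WT and Cdc42+/- and to 5.91 and 21.8 RPKM in Cdc42-/-.

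Most genes of the set were expressed above the median gene. Levels are given as RPKM, reads divided by gene length and by the library total, which allows comparison between genes. The median gene of the set had a mean of 94.0 RPKM against 11.2 RPKM over the 12233 genes tested, and the 48 genes took 2.75% and 2.79% of all gene reads of the WT libraries, 2.90% and 2.93% of those of Cdc42+/- and 3.03% and 3.14% of those of Cdc42-/-. This share did not overlap between the 3 genotypes, and it was highest in the Cdc42-/- libraries. Thymosin β4 (Tmsb4x), which holds actin monomers, had the highest mean of the set at 4044 RPKM, and only 1 gene of the 12233 lay above it. β-actin (Actb) had 3 genes above it, profilin (Pfn1) 32, γ-actin (Actg1) 49, coronin 1A (Coro1a) 71 and cofilin 1 (Cfl1) 72. At the other end was the kinase Pak1, with a mean of 3.11 RPKM from 77 to 148 reads per library. Limk1, Cfl2 and Gsn, with means of 7.92, 10.6 and 10.8 RPKM, also lay below the median of all genes. Each of the 48 genes passed the filter of a mean of at least 0.5 RPKM.

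**Figure D1:**
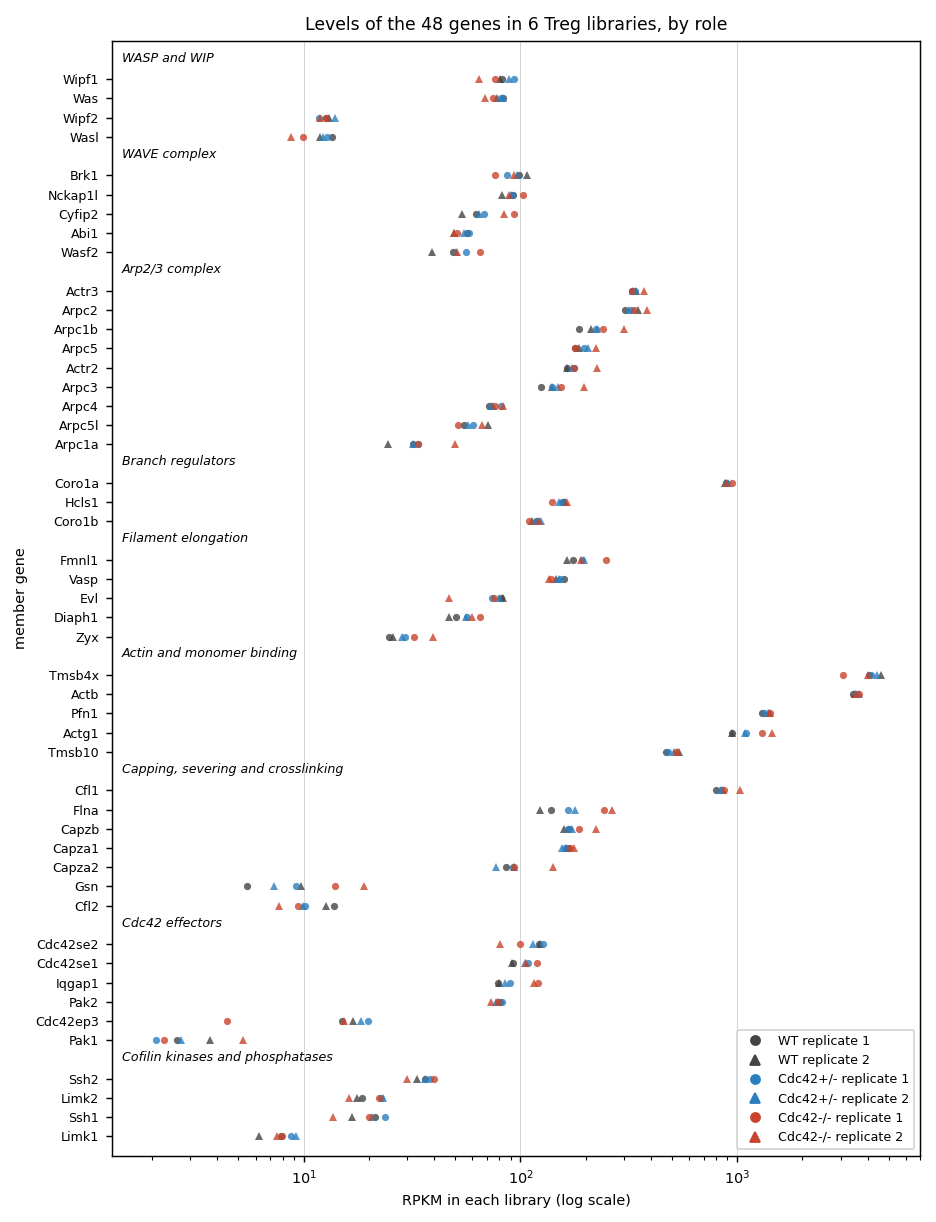
RPKM of each of the 48 genes in each of the 6 libraries on a log axis, grouped by role, with circles for replicate 1, triangles for replicate 2 and a colour per genotype. The genes span 3 orders of magnitude, from Pak1 at a mean of 3.11 RPKM to Tmsb4x at 4044 RPKM, and the points of a gene mostly lie close together, with Cdc42ep3 and Gsn among the exceptions.

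Among WASP and WIP genes and in the Arp2/3 complex, levels differed widely between related genes. Was, the blood-cell WASP, stood at 6.36 ± 0.241 times its widely expressed relative Wasl in WT (mean ± SD of the ratio, n = 2). The WIP family member Wipf1 had a mean of 80.9 RPKM against 12.7 RPKM for Wipf2. Among the 9 Arp2/3 subunit genes, Actr3 or Arpc2 was highest in every library (326 to 384 RPKM) and Arpc1a was lowest in every library (24.4 to 49.6 RPKM). The ratio of the highest to the lowest of these was between 7.74 and 14.2. Arpc1b, the form of this subunit typical of blood cells, exceeded Arpc1a by 7.25 ± 1.95 times in WT, 6.84 ± 0.308 times in Cdc42+/- and 6.60 ± 0.773 times in Cdc42-/-, and these ratios overlapped between genotypes.

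With loss of 1 allele, 0 of the 48 genes had a limma adjusted p under 0.05 (log2(RPKM + 1) scale, adjusted over all genes), and 0% of the 12233 genes did. An unadjusted p under 0.05 was found for 2 of the 48, Flna and Cfl2, against 4.32% of all genes, and voom on recovered reads also passed 0 of the 48. The log2 fold change was above 0 for 33 genes and below 0 for 15, with a median of 0.07 against 0.03 for all genes. For 25 genes no library of one genotype fell within the range of the other, beside 43.2% of all genes: 20 were higher in Cdc42+/- and 5 lower, beside 26.2% and 17.0%. The largest value of the set was that of Flna, 0.39 (SE 0.11, limma adjusted p 0.79), with an SE pooled over all 3 genotypes. The authors' deposited table gives a different call here: it lists Flna at a log2 fold change of 0.36 with an adjusted p of 0.00506, as the 1 gene of the 48 under 0.05, where 2.28% of its 14608 genes are.

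With loss of both alleles, 3 of the 48 genes rose and 0 fell: the crosslinker Flna, the scaffold Iqgap1 and the WAVE complex subunit Cyfip2. Across all genes 11.4% passed, 6.86% higher and 4.57% lower, so the set passed less often by share than the background, a difference that was not tested. Another 13 genes had an unadjusted p under 0.05, 16 in all, against 29.3% of all genes. The log2 fold change was above 0 for 31 genes and below 0 for 17, and its median was 0.07 against 0.01 for all genes. The median size of the change, without its sign, was 0.20 against 0.30 for all genes. Libraries did not overlap for 31 genes, 21 higher and 10 lower, where 56.0% of all genes did not, 28.9% higher and 27.1% lower. Of the 48 genes, 0 passed without WT replicate 1 or without WT replicate 2, 1 passed (Flna) without either Cdc42+/- library, 20 passed without Cdc42-/- replicate 1 (15 higher, 5 lower) and 10 without Cdc42-/- replicate 2 (8 higher, 2 lower). In the same fits the share of all genes that passed was 2.12% and 2.14% without a WT library, 4.47% and 4.50% without a Cdc42+/- library, 36.2% without Cdc42-/- replicate 1 and 18.5% without replicate 2, so the counts of the set moved with those of all genes. Scaling by the upper quartile left 23 genes with a fold change above 0 in place of 31 and gave a median of -0.01, with the median of all genes moved from 0.01 to -0.06. Each comparison shares libraries with the other two, so their values are given side by side and are not independent.

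**Figure D2:**
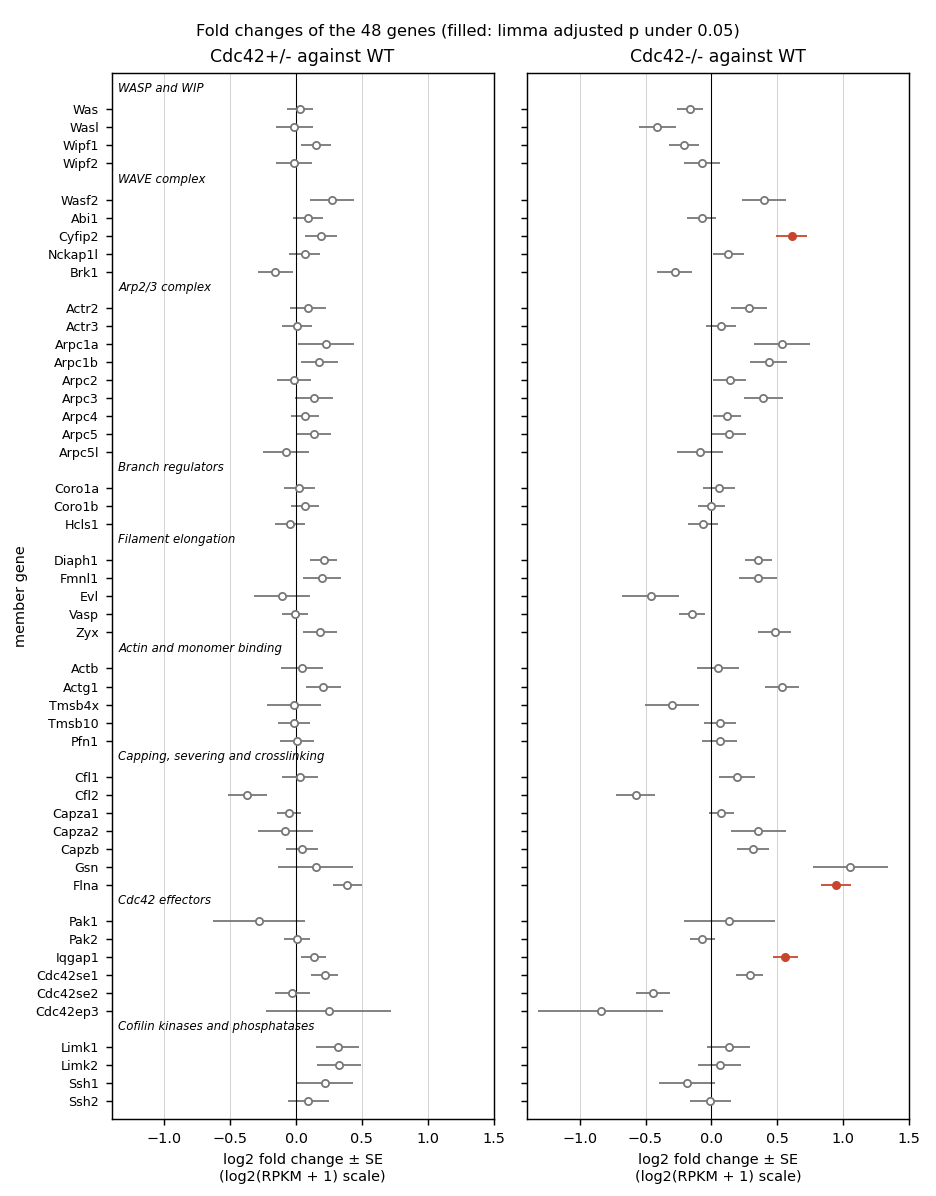
Log2 fold change of each of the 48 genes (log2(RPKM + 1) scale, error bars ± limma's SE) in Cdc42+/- against WT on the left and Cdc42-/- against WT on the right, grouped by role, with filled red points for a limma adjusted p under 0.05. No point is filled on the left, and Cyfip2, Flna and Iqgap1 are filled on the right, at 0.61, 0.95 and 0.56.

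Filamin A (Flna, gene ID 192176, chrX:74223461-74249854 on GRCm38.p6) binds actin filaments, ties them at wide angles and links them to integrins. Its level was 138.7 and 123.5 RPKM for WT, 165.5 and 178.6 for Cdc42+/-, and 243.1 and 264.1 for Cdc42-/-. All 3 genotypes were separate, with Cdc42+/- between the others. Flna rose in Cdc42-/- by 0.95 on the log2 scale against WT (SE 0.11, limma adjusted p 0.00576), a ratio of means of 1.93, and by 0.56 against Cdc42+/- (SE 0.11, limma adjusted p 0.0383). In the latter comparison 8.22% of all genes passed, 4.68% higher and 3.54% lower, and of the 48 genes 2 rose, Flna and Iqgap1, and 0 fell. There 29 of the 48 had libraries that did not overlap, 17 higher and 12 lower, beside 59.0%, 28.6% and 30.4% of all genes. The call against WT was kept in 11 of 13 alternatives and lost without WT replicate 1 (1.03, limma adjusted p 0.0519) and without WT replicate 2 (0.86, limma adjusted p 0.0749). The call against Cdc42+/- was lost in 7 of 13, among them without either WT library (limma adjusted p 0.0950 and 0.0951) and without either Cdc42+/- library (0.309 and 0.237). Flna lies on the X chromosome, as do Was and Tmsb4x. Between libraries that all had high Xist (87.4 to 99.3 RPKM), Cdc42-/- replicate 1 against both Cdc42+/- libraries, the change of Flna was 0.50 (limma adjusted p 0.0228, the lone library being assumed to vary like the others). The parts of sex and of myeloid RNA in the change against WT were not tested. The authors' deposited table also has Flna as the 1 gene of the 48 past 0.05 in Cdc42-/- against WT, with a log2 fold change of 0.91 and an adjusted p of 0.000866, where 8.66% of its genes pass.

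Iqgap1 (gene ID 29875, chr7:80711583-80815549) is a large scaffold that binds active Cdc42 and Rac, actin filaments and microtubule-end proteins. It stood at 79.1 and 80.0 RPKM for WT, 89.9 and 85.0 for Cdc42+/-, and 120.1 and 115.7 for Cdc42-/-. The libraries of each genotype were close to one another, and the Cdc42-/- pair lay well above the other 4. Iqgap1 rose by 0.56 against WT (SE 0.09, limma adjusted p 0.0166), a ratio of means of 1.48, and by 0.43 against Cdc42+/- (SE 0.09, limma adjusted p 0.0468). Its call against WT was kept in 8 of 13 alternatives and was lost without either WT library (limma adjusted p 0.128 and 0.130), without either Cdc42+/- library (0.0764 and 0.0762) and in a fit of both genotypes alone. That against Cdc42+/- was lost in 9 of 13, with a limma adjusted p of 0.123 without either WT library and of 0.275 and 0.362 without either Cdc42+/- library. Without Cdc42-/- replicate 2, the library with myeloid RNA, the change was 0.59 against WT (limma adjusted p 0.00504) and 0.45 against Cdc42+/- (limma adjusted p 0.0160).

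Cyfip2 (gene ID 76884, chr11:46193849-46312859) encodes the WAVE complex subunit that senses active Rac. It was at 62.4 and 53.6 RPKM for WT, 68.0 and 64.3 for Cdc42+/-, and 93.8 and 84.0 for Cdc42-/-. Again the genotypes did not overlap. Cyfip2 rose by 0.61 against WT (SE 0.12, limma adjusted p 0.0287), a ratio of means of 1.53. Against Cdc42+/- the value was 0.42 (limma adjusted p 0.0885) and did not pass. The call against WT was kept in 7 of 13 alternatives, and it was lost without any one WT or Cdc42+/- library (limma adjusted p 0.0981 to 0.190) and in 2 further fits. In GENCODE M21 the span of Cyfip2 overlaps Fndc9 and Gm12568, the span of Iqgap1 overlaps Gm44649, and that of Flna overlaps no other gene. Over the set, 33 of 48 genes overlap another annotated gene, 27 of them on the opposite strand, and whether the counting used strand is not given in the sources used here.

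**Figure D3:**
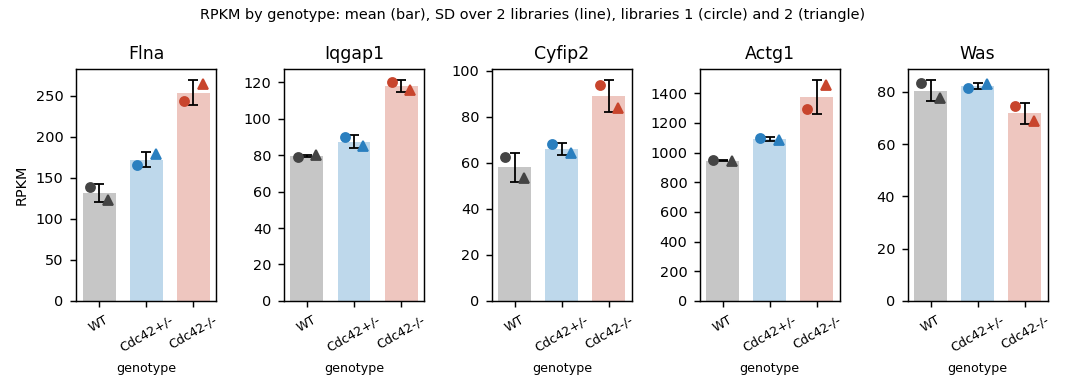
RPKM of Flna, Iqgap1, Cyfip2, Actg1 and Was by genotype, with bars for the mean, lines for the SD over 2 libraries, circles for replicate 1 and triangles for replicate 2. In the first 4 genes both Cdc42-/- libraries lie above the other 4 libraries, and for Was the Cdc42-/- libraries (74.5 and 69.0 RPKM) lie just below them.

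Was, its relative Wasl and the WIP genes Wipf1 and Wipf2 did not pass in any comparison with all libraries. Before adjustment, only Wasl had a limma p under 0.05 in Cdc42-/- against WT, beside 29.3% of all genes. In Cdc42-/- against Cdc42+/- Wasl and Wipf1 did, beside 27.1%. Was had 83.2 and 77.7 RPKM for WT, 81.3 and 82.9 for Cdc42+/-, and 74.5 and 69.0 for Cdc42-/-. The Cdc42-/- libraries were the lowest 2 of the 6. The log2 fold change was 0.03 in Cdc42+/- (limma adjusted p 0.999), a sign that turned under 3 alternatives, and -0.16 in Cdc42-/- against WT (SE 0.10, limma adjusted p 0.319), and it passed in 0 of 13 alternatives of each comparison. N-WASP (Wasl), the widely expressed relative, was at 13.4 and 11.9 RPKM for WT and 9.90 and 8.70 for Cdc42-/-, with a fold change of -0.41 (limma adjusted p 0.115). The WASP-stabilising protein Wipf1 had -0.21 (limma adjusted p 0.278) and Wipf2 had -0.07. For each of these 4 genes the fold change in Cdc42-/- was below 0, with both Cdc42-/- libraries under both WT libraries, as for 27.1% of all genes, and their median was -0.19. Without Cdc42-/- replicate 1, which leaves the library with myeloid RNA, the median was -0.27. Without replicate 2 the median was -0.10, with -0.32 for Wasl and -0.09 for Wipf1.

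The other 4 genes of the WAVE complex did not pass. Wasf2, the WAVE protein itself, had levels of 48.7 and 39.1 RPKM for WT and 65.3 and 51.1 for Cdc42-/- (0.40, limma adjusted p 0.178). Nckap1l, the blood-cell form of the complex's long scaffold, had 0.13, the adaptor Abi1 had -0.07, and the small stabilising subunit Brk1 had -0.28 (limma adjusted p 0.227). Brk1 and Cyfip2 belong to the same complex, and their fold changes had opposite signs. Without Cdc42-/- replicate 2, Wasf2 had 0.57 and Brk1 had -0.42. The median of the 5 WAVE genes was 0.02 without replicate 1, 0.13 with both libraries and 0.23 without replicate 2.

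The Arp2/3 complex is the machine that WASP and WAVE switch on. In Cdc42-/- against WT 0 of its 9 subunit genes passed, by limma or by voom on recovered reads. An unadjusted limma p under 0.05 was found for 3 of the 9, beside 29.3% of all genes. The fold change was above 0 in 8 of the 9, beside 6244 of the 12233 genes tested, and its median was 0.14. The libraries did not overlap for 5, Actr2, Arpc1a, Arpc1b, Arpc3 and Arpc4. All 5 were higher in Cdc42-/-, beside 28.9% of all genes that were higher without overlap. Arpc1b had 186 and 211 RPKM for WT, 222 and 226 for Cdc42+/-, and 240 and 301 for Cdc42-/- (0.44, SE 0.14, limma adjusted p 0.10). Arpc1a was at 31.8 and 24.4 RPKM for WT, 33.6 and 32.0 for Cdc42+/-, and 33.6 and 49.6 for Cdc42-/- (0.54, SE 0.21, limma adjusted p 0.157). Its Cdc42-/- libraries were further apart than those of the other genotypes, and replicate 1 was at the level of Cdc42+/-. Arpc3 had 0.40 (limma adjusted p 0.134), Actr2 had 0.29, and Arpc2, Arpc5, Arpc4 and Actr3 had between 0.07 and 0.14. Arpc5l, with -0.09, was the subunit with a value below 0.

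Arp2/3 values depended on which Cdc42-/- library was used. The level in replicate 2 was above that in replicate 1 for 9 of 9 subunit genes, by a median of 0.32 on the log2 scale, while in WT replicate 2 was above for 7 of 9 with a median of 0.06 and in Cdc42+/- for 3 of 9 with a median of -0.03. Summed over the 9 genes, the level was 1441 and 1556 RPKM for WT, 1573 and 1563 for Cdc42+/-, and 1570 and 1903 for Cdc42-/-. Cdc42-/- replicate 2 is the library with myeloid marker RNA, and its part in this result was not tested. Without that library 6 of 9 had a fold change above 0, with a median of 0.06. Without replicate 1 it was 9 of 9, with a median of 0.29. Upper-quartile scaling gave 7 of 9 and a median of 0.06.

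The same pair of libraries also split other roles. Replicate 2 of Cdc42-/- was above replicate 1 for 6 of 7 capping, severing and crosslinking genes, by a median of 0.24. It was below replicate 1 for 4 of 4 WASP and WIP genes and 4 of 4 cofilin kinases and phosphatases, in the latter by a median of -0.42. Over the 48 genes it was above for 25. The median absolute difference between the libraries of a genotype was 0.10 for WT, 0.07 for Cdc42+/- and 0.23 for Cdc42-/-, beside 0.16, 0.12 and 0.30 for all genes. The set's median level is also higher (94.0 against 11.2 RPKM), and its part in these differences was not tested. The gaps in Cdc42-/- ran from -0.67 for Evl to 1.60 for Cdc42ep3.

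**Figure D4:**
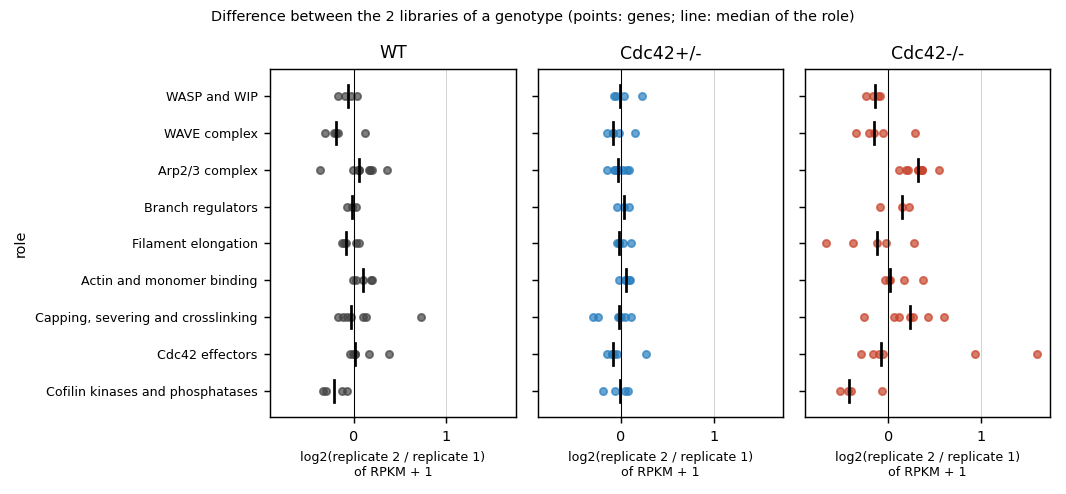
Log2 ratio of replicate 2 to replicate 1 (RPKM + 1) for each gene, by role, with a panel per genotype, a point per gene and a black line at the median of each role. In Cdc42-/- the 9 Arp2/3 points all lie right of 0 (median 0.32) and the 4 cofilin kinases and phosphatases all lie left of it (median -0.42), while in Cdc42+/- the points stay nearer to 0.

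Among regulators of branches, the values of Coro1a, Coro1b and Hcls1 stayed within 0.07 of 0 in both comparisons with WT. Coro1a, which binds filaments and recruits partners to the Arp2/3 complex and is needed for T cell survival, was at 879 to 950 RPKM in the 6 libraries. Hcls1, the blood-cell cortactin that steadies branches, was at 140 to 164 RPKM. With SEs of 0.10 to 0.12, small changes in these 3 genes were not detectable.

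Elongation factors gave 0 passing genes of 5 in Cdc42-/- against WT, and for all 5 the libraries of both genotypes were apart, as for 56.0% of all genes. The formins Diaph1 and Fmnl1 had 0.36 each (limma adjusted p 0.0774 and 0.166). Diaph1 was at 50.3 and 46.8 RPKM for WT, 56.6 and 55.8 for Cdc42+/-, and 65.3 and 59.7 for Cdc42-/-. Zyx, a focal adhesion protein that brings in Ena/VASP proteins, had 0.48 (limma adjusted p 0.0638), with 24.8 and 25.9 RPKM for WT and 32.3 and 39.4 for Cdc42-/-. The Ena/VASP proteins themselves, which extend filament ends, had values below 0: Vasp had -0.15 (limma adjusted p 0.358) and Evl had -0.46 (limma adjusted p 0.213). For Evl the Cdc42-/- libraries differed widely, with 75.6 RPKM in replicate 1 and 47.0 RPKM in replicate 2 against 81.6 and 83.4 RPKM in WT. Without replicate 2 Evl had -0.13, Vasp -0.13, Diaph1 0.42, Fmnl1 0.55 and Zyx 0.34.

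Of the actins, Actg1 (gene ID 11465, chr11:120345687-120348495) just missed the threshold in Cdc42-/- against WT. Its level was 948 and 944 RPKM for WT, 1102 and 1085 for Cdc42+/-, and 1296 and 1455 for Cdc42-/-. The 3 genotypes were separate, and the WT libraries were nearly equal. The log2 fold change was 0.54 (SE 0.13, limma adjusted p 0.0503), and it passed in 4 of 13 alternatives, among them without Cdc42-/- replicate 1 (0.62, limma adjusted p 0.00264) and without replicate 2 (0.45, limma adjusted p 0.0181). Actb, by contrast, was at 3436 and 3498 RPKM for WT and 3629 and 3548 for Cdc42-/- (0.05, SE 0.16, limma adjusted p 0.858). The ratio of Actb to Actg1 averaged 3.66 ± 0.0589 for WT, 3.27 ± 0.109 for Cdc42+/- and 2.62 ± 0.255 for Cdc42-/- (mean ± SD, n = 2), without overlap between genotypes. The coding parts of both actin genes are much alike, and how the authors assigned reads that fit both is not given in the sources used here, so this ratio is uncertain in size.

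Monomer-binding proteins did not pass. Tmsb4x was at 4038 and 4606 RPKM for WT, 4138 and 4401 for Cdc42+/-, and 3076 and 4002 for Cdc42-/- (-0.30, SE 0.20, limma adjusted p 0.371). Without Cdc42-/- replicate 2 Tmsb4x had -0.49. Its relative Tmsb10 had 0.07. The ratio of Tmsb4x to Tmsb10 stood at 8.64 and 8.59 for WT, 8.66 and 8.58 for Cdc42+/-, and 5.89 and 7.59 for Cdc42-/-. Only the Cdc42-/- libraries left the narrow range of the other 4. Pfn1, which delivers monomers to growing ends, was at 1306 to 1422 RPKM throughout, with 0.06 in Cdc42-/- against WT.

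Of the 7 capping, severing and crosslinking genes, Flna passed and the other 6 did not. Gelsolin (Gsn), which cuts and caps filaments when calcium rises, had the highest fold change of the 48 with all libraries, though not without WT replicate 1 or Cdc42-/- replicate 2. It was at 5.47 and 9.70 RPKM for WT, 9.25 and 7.30 for Cdc42+/-, and 13.9 and 19.1 for Cdc42-/- (1.06, SE 0.28, limma adjusted p 0.0657). The Cdc42-/- libraries lay above the other 4, and the WT libraries differed widely. Gsn passed in 2 of 13 alternatives, one of them without Cdc42-/- replicate 1 (1.27, limma adjusted p 0.0195), and without replicate 2 it was 0.84 (limma adjusted p 0.109). Without WT replicate 1 it was 0.69, below the 1.03 of Flna. The capping subunits had 0.32 for Capzb (limma adjusted p 0.150), 0.36 for Capza2 and 0.08 for Capza1, and for Capza2 replicate 2 of Cdc42-/- was at 142 RPKM against 77.5 to 93.7 RPKM in the other 5 libraries. Without that library Capza2 had 0.06 and Capzb 0.18.

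The fold changes of the cofilins had opposite signs. Cfl1, the main form, was at 801 and 856 RPKM for WT and 871 and 1027 for Cdc42-/- (0.19, limma adjusted p 0.384). Without Cdc42-/- replicate 2 it had 0.07. Cfl2, better known from muscle, was at 13.8 and 12.7 RPKM for WT, 10.1 and 9.92 for Cdc42+/-, and 9.45 and 7.71 for Cdc42-/-. It was the 1 gene of the 48 whose libraries were ordered from WT down to Cdc42-/- without overlap, with -0.37 in Cdc42+/- (limma adjusted p 0.999) and -0.58 in Cdc42-/- (SE 0.15, limma adjusted p 0.0595), and it passed in 2 of 13 alternatives. The ratio of Cfl1 to Cfl2 averaged 62.8 ± 6.60 for WT, 84.4 ± 1.12 for Cdc42+/- and 113 ± 28.9 for Cdc42-/-.

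Among Cdc42 effectors, Iqgap1 passed and the other 5 did not. Cdc42ep3, a Borg protein that binds active Cdc42 and septins, was at 14.9 and 16.9 RPKM for WT, 19.7 and 18.4 for Cdc42+/-, and 4.41 and 15.4 for Cdc42-/-. Cdc42-/- replicate 1 stood far below the other 5 libraries, on 96 reads, while replicate 2 lay within the WT range. With both libraries the fold change was -0.84 (SE 0.47, limma adjusted p 0.286). Without replicate 2 it was -1.64 (limma adjusted p 0.00111) and without replicate 1 it was -0.04 (limma adjusted p 0.841), so this value rests on 1 library. In bulk RNA, fewer cells that express a gene and less RNA per cell cannot be told apart.

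The small Cdc42-binding proteins Cdc42se1 and Cdc42se2 had opposite signs. Cdc42se1 was at 92.1 and 91.7 RPKM for WT, 109 and 105 for Cdc42+/-, and 120 and 106 for Cdc42-/- (0.29, limma adjusted p 0.121). Cdc42se2 was at 122 and 123 RPKM for WT, 127 and 114 for Cdc42+/-, and 99.6 and 80.9 for Cdc42-/- (-0.44, limma adjusted p 0.0831). Without Cdc42-/- replicate 2 Cdc42se1 had 0.38 and Cdc42se2 -0.30. For neither gene did the libraries of Cdc42-/- and WT overlap, as for 56.0% of all genes. The kinase Pak2, which Cdc42 and Rac activate, was at 73.4 to 82.5 RPKM in all libraries (-0.07), and Pak1 had 0.14 with an SE of 0.35.

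LIM kinases switch cofilin off by phosphorylation and slingshot phosphatases switch it on again. Of Limk1, Limk2, Ssh1 and Ssh2, 0 passed, and for all 4 the Cdc42-/- and WT libraries overlapped, with fold changes between -0.18 and 0.13. Without Cdc42-/- replicate 2 all 4 values were above 0, from 0.08 for Ssh1 to 0.28 for Limk2. In Cdc42+/- against WT, values were above 0 for all 4, with a median of 0.27. The libraries of Limk1 and Limk2 lay apart, both higher in Cdc42+/- (0.32 and 0.33, limma adjusted p 0.999 each). Of all genes, 26.2% were higher without overlap. Without WT replicate 2 the median was 0.11. Limk2 was at 18.5 and 17.6 RPKM for WT, 22.6 and 23.2 for Cdc42+/-, and 22.2 and 16.1 for Cdc42-/-. For 3 of these genes, Limk1, Limk2 and Ssh1, both Cdc42-/- libraries were below both Cdc42+/- libraries, as for 30.4% of all genes.

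Libraries ordered by genotype without overlap, from WT through Cdc42+/- to Cdc42-/-, were found for 9 genes with a higher level at each step and 1 with a lower level at each step. The 9 were Flna, Iqgap1, Cyfip2, Actg1, Zyx, Diaph1, Arpc1a, Arpc1b and Arpc3, and the 1 was Cfl2. These are 18.8% and 2.08% of the 48 genes, beside 8.25% and 5.11% of all genes tested. For Flna the step from WT to Cdc42+/- was 0.39 and the step from there to Cdc42-/- was 0.56, and for Actg1 they were 0.21 and 0.33. For Iqgap1 the first step was 0.13 and the second 0.43. None of the first steps passed the test, and they cannot be told apart from sex. The summed cell cycle genes rose in the same order (165 and 162 RPKM for WT, 294 and 258 for Cdc42+/-, 747 and 1082 for Cdc42-/-). The RNA of Cdc42 itself was not ordered in this way. The part of each in these orders was not tested.

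Other genes of actin and small GTPase signalling were taken from a list of 112 symbols, of which 102 genes were tested. In Cdc42+/- against WT 0 passed by limma or by voom on recovered reads. An unadjusted limma p under 0.05 was found for 2 of the 102, beside 4.32% of all genes. With both alleles lost, 15 rose and 5 fell against WT, 20 of 102 beside the 11.4% of all genes, and in Cdc42-/- against Cdc42+/- 10 rose and 3 fell, beside the 8.22% of all genes that passed. The median fold change against WT was 0.13. The 15 that rose came mostly from 2 groups: 6 of 22 filament-binding, severing and crosslinking genes and 3 of 12 further effectors of Cdc42 and related GTPases. Of the 20 exchange factors, GTPase-activating proteins and adaptors, 0 rose and 2 fell, and of MRTF and SRF genes, the transcription factors that read the pool of free actin, 0 of 3 passed. Without either WT library, 4 of the 102 passed, without either Cdc42+/- library 10, without Cdc42-/- replicate 1 53, and without replicate 2 31. Of all genes, 2.12% and 2.14%, 4.47% and 4.50%, 36.2%, and 18.5% passed in these fits.

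Diaph3, a formin of dividing cells, had the largest rise on the log2(RPKM + 1) scale: 2.39 and 1.63 RPKM for WT, 5.08 and 2.59 for Cdc42+/-, and 12.9 and 18.7 for Cdc42-/- (2.47, SE 0.32, limma adjusted p 0.00745). Cdc42bpb (MRCKβ), a Cdc42-activated kinase that drives myosin, rose from 0.224 and 0.626 RPKM to 3.66 and 6.86 RPKM (2.10, limma adjusted p 0.0149). Iqgap3, the IQGAP of proliferating cells, went from 0.332 and 0.412 RPKM to 3.49 and 5.59 RPKM (1.99, limma adjusted p 0.00887). Summed levels of the 10 cell cycle genes were also highest in Cdc42-/-, and their part in these values was not tested. Diaph3 and Iqgap3 lost their calls without either WT library, and Cdc42bpb without any one WT or Cdc42+/- library. With a pseudocount of 0.1 the values of Iqgap3 and Cdc42bpb were 3.27 and 3.40, and with voom on recovered reads they were 3.55 and 3.89, above the 2.91 and 2.83 of Diaph3, so both their size and the order of the 3 genes depend on the scale. Rhob, an inducible small GTPase, stood at 4.68 and 8.97 RPKM for WT, 5.41 and 6.94 for Cdc42+/-, and 27.5 and 29.9 for Cdc42-/- (1.98, SE 0.28, limma adjusted p 0.00967), with both Cdc42-/- libraries far above the other 4. Destrin (Dstn), a relative of cofilin, passed at 1.35 with a limma adjusted p just under 0.05 and lost the call in 9 of 13 alternatives.

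The genes that fell were led by Rhoh, a GTPase of blood cells that does not hydrolyse GTP and is needed for T cell receptor signalling. It was at 56.4 and 55.3 RPKM for WT, 48.8 and 56.3 for Cdc42+/-, and 21.1 and 17.6 for Cdc42-/- (-1.49, SE 0.13, limma adjusted p 0.00246). Rhoh and Rhob kept their calls against WT in 13 of 13 alternatives. The crosslinker Actn1 was at 69.4 and 74.2 RPKM for WT and 41.1 and 32.2 for Cdc42-/- (-0.96, limma adjusted p 0.0131). Fmnl3 fell by 0.82, the Rac exchange factor Tiam1 by 0.73 and the Cdc42 exchange factor Dock10 by 0.46 (limma adjusted p 0.0248, 0.0231 and 0.0464). Actn1 lost its call without either WT library, and Fmnl3, Tiam1 and Dock10 lost theirs without any one WT or Cdc42+/- library.

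Against Cdc42+/-, Rhob rose by 2.06, Diaph3 by 1.82, Cdc42bpb by 1.81, Iqgap3 by 1.41 and the membrane linker Ezr by 0.83 (limma adjusted p between 0.0141 and 0.0331), while Rhoh fell by 1.40, Actn1 by 0.90 and Tiam1 by 0.67 (limma adjusted p 0.00808, 0.0217 and 0.0360). These calls were lost for all 8 without either Cdc42+/- library, in which case 0 of the 102 genes and 0% of all genes passed. All but Rhob and Rhoh also lost the call without either WT library and in a fit of both genotypes alone. Iqgap2, a relative of Iqgap1 named here after its values were seen, rose against WT from 19.3 and 15.6 RPKM to 33.7 and 38.3 RPKM (1.01, limma adjusted p 0.00978).

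**Figure D5:**
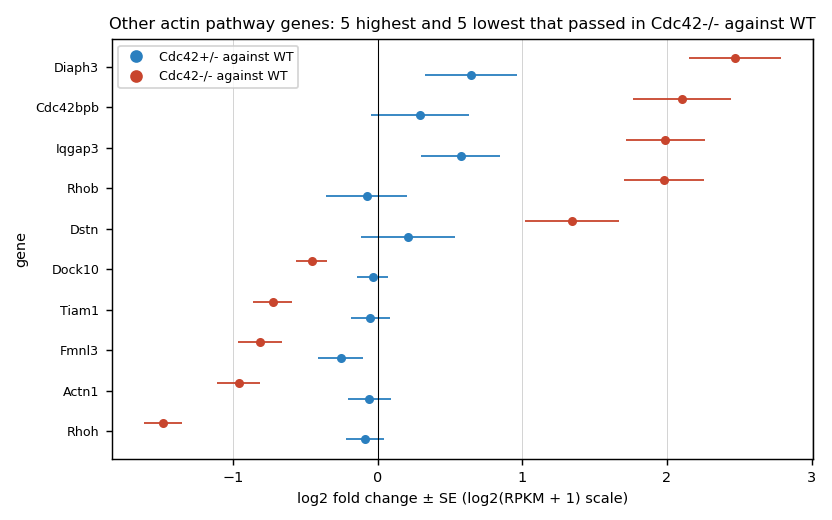
Log2 fold change against WT (log2(RPKM + 1) scale, error bars ± limma's SE) of the other actin pathway genes with the 5 highest and the 5 lowest values among those that passed in Cdc42-/- against WT, in Cdc42-/- (red) and in Cdc42+/- (blue). The Cdc42-/- values run from -1.49 for Rhoh to 2.47 for Diaph3, and the Cdc42+/- values, which did not pass the test, lie nearer to 0.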

How the data were processed

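Total RNA of sorted splenic Treg cells was sequenced in 6 libraries, and genotype and replicate were taken from sample titles. TopHat and the build mm10 are named in the submitters' processing notes, and the counting tool, annotation and strand setting are not given in the sources used here. The authors deposited 2 tables of 14608 genes, each with RPKM per library. The unit is not in the headers: RPKM was worked out from the deposited values. Group means stand beside them per the file headers, and by their values these are a normalised signal made by the authors. They also hold the authors' fold change as a ratio, its deposited log2 value, and the authors' p-value with an adjusted p-value. Reads were recovered from RPKM and group means, and 100.0% of values came out whole (tolerance 1e-06). A symbol is missing for 5 genes.

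Limma 3.58.1 in R 4.3.3 (lmFit, eBayes with a trend) was run on log2(RPKM + 1) of the 12233 genes whose mean over all libraries reached 0.5 RPKM, with 6 libraries in 1 fit and Benjamini-Hochberg adjustment over all genes at 0.05. Fold changes are on this scale, which understates changes of low genes. Members, gene lists and tests were chosen with earlier results of these data known. All 48 members are named, with library values for those past the threshold or with a log2 fold change of at least 0.5 in size, and for Was. Of the other pathway genes, up to 5 at each end among those past the threshold are named. Older symbols in the lists were matched by gene ID. P-values rest on a spread pooled over the library pairs of all 3 genotypes, so a gene has the same SE in each comparison. The pairs differed most in Cdc42-/- (median gap over all genes 0.30, against 0.16 in WT and 0.12 in Cdc42+/-). The Cdc42-/- pair therefore also enters the test of Cdc42+/- against WT. The code was tested on simulated data. Alternatives were a pseudocount of 0.1, no filter, voom on recovered reads, upper-quartile scaling, only the genotypes compared, array weights, a replicate block and leaving out each library. The values of 1 further pathway gene are not reported here.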

Additional observations from a re-analysis of the deposited data

How the results depend on the processing

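Over 13 alternatives the count of the 48 genes past the threshold moved most with the libraries in the fit. In Cdc42+/- against WT it was 0 in all 13. In Cdc42-/- against WT (3 genes) it was 5 with voom on recovered reads, 1 with only the genotypes compared and 0 to 20 with 1 library left out. In Cdc42-/- against Cdc42+/- (2 genes) it was 1 with voom and with upper-quartile scaling, 0 with only the genotypes compared and with array weights, and 0 to 18 with 1 library left out. The other pathway genes against WT gave 11 with only the genotypes compared and 4 to 53 with 1 library left out, and against Cdc42+/- 3 and 0 to 48. Over all genes, Cdc42+/- against WT gave 1 with voom, 60 with only the genotypes compared, 88 with array weights and 0 to 76 with 1 library left out. Cdc42-/- against WT gave 536, 885 (array weights) and 259 to 4433, and Cdc42-/- against Cdc42+/- gave 276 and 0 to 4263. Where a library was left out, the lone library of its genotype was assumed to vary like the others. Signs turned for Was in Cdc42+/- against WT (-0.0070 with voom, -0.0012 with upper-quartile scaling, -0.019 to 0.079 with 1 library left out), for Cdc42 with 1 library left out (-0.071 to 0.0086 in Cdc42+/- against WT, -0.42 to 0.081 in Cdc42-/- against WT and -0.39 to 0.11 against Cdc42+/-) and for Foxp3 in Cdc42-/- against Cdc42+/- (-0.87 to 0.13), and the cause was not tested. These labels cover 39 results of single genes, each under the 13 alternatives. Among the values so obtained, 104 lost the threshold, 16 reached it and 7 turned sign. Genes outside these results also turned sign in Cdc42-/- against WT without Cdc42-/- replicate 2, such as Pak1 (0.14 to -0.33) and Ssh1 (-0.18 to 0.08).

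Replicate numbers did not pair the samples: the correlation of deviations between same-numbered libraries was 0.02 for WT and Cdc42+/-, 0.20 for WT and Cdc42-/- and -0.03 for Cdc42+/- and Cdc42-/-. A replicate block gave 3 of the 48 genes in Cdc42-/- against WT and 0 in Cdc42-/- against Cdc42+/-. With 2 libraries a genotype, small changes were not detectable: the median SE was 0.13 for the 48 genes and 0.19 for all genes.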

Other observations

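Balance between related genes was measured for 10 pairs of the set, as the ratio of RPKM in each library. In Cdc42-/- against WT the ratio did not overlap for 6 of the 10, near the 56.0% of single genes that did not. The ratio of Was to Wasl stood at 6.19 and 6.53 for WT, 6.34 and 6.76 for Cdc42+/-, and 7.52 and 7.93 for Cdc42-/-. Ssh2 to Ssh1 stood at 1.71 and 1.99 in WT and at 2.00 and 2.19 in Cdc42-/-, and Arpc5 to Arpc5l at 3.28 and 2.63 in WT and at 3.50 and 3.37 in Cdc42-/-. The ratios of Capza1 to Capza2, Limk2 to Limk1, Pak2 to Pak1 and Arpc1b to Arpc1a overlapped. These ratios are descriptions of 2 libraries each, with no test.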
